A study of Homo sapiens with 4 samples.

Results

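Regions called as peaks of IGF2BP3 immunoprecipitation deep in 3′ untranslated regions (3′ UTRs) were described in OE-19 cells. OE-19 is an established line of adenocarcinoma of the esophagogastric junction. A region was a peak at most 1000 bp wide whose summit fell on exactly 1 MANE Select mRNA, the single reference transcript chosen for each coding gene, more than 1000 nt past the stop codon. Of 44622 peaks in replicate 1, 4558 were distal 3′ UTR peaks (10.2%), on 2062 mRNAs. In replicate 2, 4123 of 42723 peaks were (9.65%), on 1878 mRNAs. The series held 4 samples of OE-19, with no genotype or drug treatment named in the labels. Of these, 2 were RNA immunoprecipitation sequencing (RIP-seq) libraries made with an anti-IGF2BP3 antibody, and 2 were input libraries, which were not used here. The labels state ultraviolet fixation of the cells, which the study's methods for RIP do not mention. OE-19 is 1 tumour-derived line, so the replicates carry no spread between tumours. Of 6 markers, the epithelial EPCAM, KRT8, KRT18 and KRT19 and the receptor ERBB2 had no peak on their mRNA. CDH1, also epithelial, had 4 and 8, none of them distal. The share of all mRNAs without a peak was not counted. A peak list does not measure expression, and a stretch without a peak may be unbound or may belong to an mRNA too scarce to be called.

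IGF2BP3 is an RNA-binding protein of the insulin-like growth factor 2 mRNA-binding family. It is known to keep target mRNAs stable, to read N6-methyladenosine (m6A), and to be made in embryonic tissue and again in many carcinomas. The 3′ UTR is where microRNAs, AU-rich element proteins and Pumilio proteins act on an mRNA. Long 3′ UTRs hold more such sites, and cells can remove them by cleaving the transcript at an earlier polyadenylation site.

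Sequences are shown for the sites where the replicates placed their summits most alike among the 10 shared distal sites of highest fold enrichment, so that the bases under the summits can be read. The peaks themselves are far wider, and the bases IGF2BP3 touches are not resolved by RIP-seq. Each is 25 nt of GRCh38 on the mRNA strand, 5′ to 3′, and the capitals run from the summit of one replicate to that of the other.
MBNL2, chr13:97393907-97393931, plus strand, exon 9: tcaggatataaCAGcacttcaccga
AMOT, chrX:112775092-112775116, minus strand, exon 14: gagccatgaaaCCTccttctggcct
CS, chr12:56271933-56271957, minus strand, exon 11: tgtttcagaagcCccatttgcacag
HIPK2, chr7:139571336-139571360, minus strand, exon 15: ggcagccgtctcCCgccccaggcgg
TRAK1, chr3:42224792-42224816, plus strand, exon 16: ttggtatTCCGCTGGCTCcagcgct
RREB1, chr6:7250480-7250504, plus strand, exon 13: gaggagaatgtaCcccactgcacct

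A second set shows TGGAC, which is UGGAC in RNA and holds the GGAC core of m6A sites. It stood within 20 nt of both summits in 21 of the 2043 shared distal sites. Whether that is more than distal sequence as a whole would give was not tested. The 4 of these sites with the highest fold follow, with TGGAC in capitals, and were chosen after their values were seen. DNMT3A makes de novo DNA methylation, CDS2 makes CDP-diacylglycerol, and GNG12 is a G protein gamma subunit.
DNMT3A, chr2:25233188-25233212, minus strand, exon 23: gtcgggcccgTGGACagctgagagt
CDS2, chr20:5195554-5195578, plus strand, exon 13: tgactcgctcTGGACcccacttccc
GNG12, chr1:67702053-67702077, minus strand, exon 4: tgtgtgacctTGGACaaggcgcttc
TMEM248, chr7:66957965-66957989, plus strand, exon 7: cctgggggccTGGACgaagaggcct

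The third set shows matches to let-7, a microRNA family whose target mRNAs are often also bound by IGF2BP proteins. The mature let-7a is given from RefSeq with its seed, bases 2 to 8, in capitals, followed by distal sites with the complementary CTACCTC in capitals within 50 nt of both summits. There were 6 such sites among the 2043 shared ones, and the 4 of highest fold are printed. Whether 6 is more than distal sequence as a whole would give was not tested. CFLAR blocks caspase-8 activation, SOCS4 dampens cytokine signalling, and PTPRB is a receptor tyrosine phosphatase.
hsa-let-7a-5p: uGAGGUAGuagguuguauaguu
CFLAR, chr2:201167849-201167873, plus strand, exon 10: cctaattacCTACCTCtggactttt
SOCS4, chr14:55048023-55048047, plus strand, exon 3: gcaattctcCTACCTCagctcccaa
KIAA1549, chr7:138833131-138833155, minus strand, exon 20: tggtcatttCTACCTCcggagcaag
PTPRB, chr12:70517530-70517554, minus strand, exon 34: ccctcaagcCTACCTCattcctgaa

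Distal 3′ UTR peaks were shallow regions, broader than peaks in coding sequence (CDS). Their median width was 200 bp in replicate 1 and 182 bp in replicate 2. Proximal 3′ UTR peaks, which lay up to 1000 nt past the stop codon, were almost as wide, with medians of 179.5 and 173 bp. For CDS peaks the mean of the medians was 102.5 bp ± 2.12 (SD, n = 2). Their median fold enrichment, the ratio of RIP pileup to local background given by the peak caller, was 2.78 and 2.75, and the highest values were 7.12 and 6.08. Proximal 3′ UTR peaks had median folds of 2.81 and 2.83, and CDS peaks 2.95 and 3.0. Most distal peaks did not pass correction for multiple testing. Of them, 2.0% in replicate 1 and 0.849% in replicate 2 had a q of at most 0.05, against a background of 10% and 7.77% of all peaks placed on 1 mRNA. The share with a q of 1 was 76.2% and 84.6%.

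The replicates shared a majority of the distal peaks by the loosest measure. In replicate 1, 51.9% of distal peaks overlapped a peak of replicate 2 by at least 1 bp, and in replicate 2, 63.5% overlapped a peak of replicate 1. The corresponding shares of all placed peaks were 60.6% and 64.5%, so the distal share was below the background by far more in replicate 1 than in replicate 2. Distal peaks that overlapped were wider, with a median of 289 and 244 bp, than those that did not, at 144 and 121 bp. When an overlap had to cover 50% of both peaks, the mean share fell from 57.7% ± 8.24 (SD, n = 2) to 19.2%, and with summits within 50 nt of each other it was 18.2%. With a q of at most 0.05 in both lists it was 22.1%, from 9.89% in replicate 1 and 34.3% in replicate 2.

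The distal peaks differed little from the proximal ones in overlap, fold and width. A q of at most 0.05 was rarer among them, at 2.0% and 0.849% against 2.53% and 1.55% of proximal peaks. The mean difference, distal minus proximal, was -2.08 percentage points ± 0.839 for overlap, -0.619 percentage points ± 0.119 for a q of at most 0.05, -0.0495 ± 0.0378 for median fold and 14.8 bp ± 8.13 for median width (SD, n = 2). Each difference had the same sign in both replicates. An exact two-sided sign-flip permutation test over 2 replicates cannot go below p = 0.5, which is the value it gave for each measure.

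All distal peaks lay in the last exon of their mRNA, which the rule all but sets, since only 7 of 9821 mRNAs have a distal 3′ UTR over more than 1 exon. The median summit stood 2396 nt past the stop codon in replicate 1 and 2377 nt in replicate 2, and the farthest 23759 and 23529 nt. Summits on the CDS of another isoform of the same gene numbered 12 and 9. An exon of another gene covered 4.43% and 4.80% of the distal summits, and because the lists carry no strand those cannot be assigned to 1 gene with certainty. On mRNAs with any placed peak, the density of summits was highest in the first 200 nt of the 3′ UTR, at 0.771 and 0.763 per kb. It dropped to 0.331 and 0.311 per kb between 200 and 500 nt. It rose again to 0.460 and 0.438 per kb between 1000 and 1500 nt, and was 0.342 and 0.317 per kb past 5000 nt. Over the whole distal region the density was 0.890 ± 0.00176 (SD, n = 2) of that in the first 1000 nt, and 0.516 when a q of at most 0.05 was required. Without a limit on q, the order turned when the first 200 nt were left out. Density was then 0.397 and 0.357 per kb from 200 to 1000 nt, against 0.428 and 0.397 in the distal region. The limit of 1000 nt cut through an even stretch: 209 and 192 peaks lay in the last 100 nt before it, with median folds of 2.79 and 2.77, and 212 and 209 in the first 100 nt after it, with 2.86 and 2.74.

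**Figure D1:**
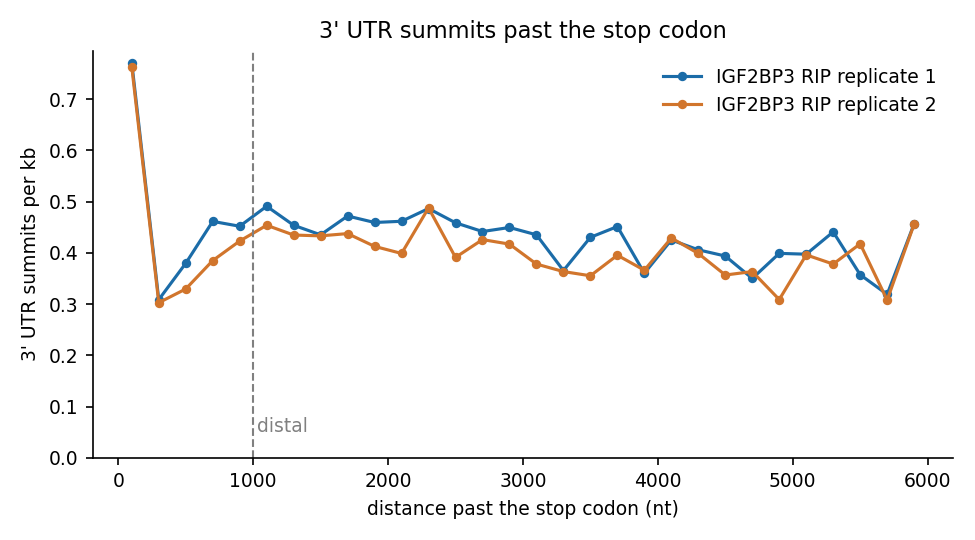
Summits per kb of 3′ UTR (y axis) in bins of 200 nt by distance past the stop codon (x axis, nt) on mRNAs with any placed peak, with 1 line for each IGF2BP3 RIP replicate. Both lines start above 0.7 per kb, drop in the next bin and show no step at the dashed line at 1000 nt, where the distal region begins.

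Toward the other end of the mRNA the distal summits were unevenly placed. In the last 150 nt before the annotated 3′ end their density was 0.307 summits per kb ± 0.0180 (SD, n = 2), counted over the distal 3′ UTRs of the mRNAs that carried a distal peak. Between 200 and 300 nt it was 1.16 ± 0.0762, and between 500 and 1000 nt 0.715 ± 0.0223. The rise began in both replicates in the bin from 150 to 200 nt, at 0.884 and 0.875 per kb. The last 200 nt thus held 3.99% and 4.17% of distal peaks on 6.12% and 6.06% of the distal bases. The range from 200 to 500 nt, chosen after seeing the data, held 13.6% and 14% on 9.06% and 8.97% of the bases. An mRNA with a short distal region is counted here only if its peak lies near the end. That selection raises the densities near the end, by an amount that was not computed. On all mRNAs with any placed peak, 3′ UTRs over 1000 and up to 2000 nt had 0.385 and 0.346 distal peaks per kb. Those over 2000 and up to 4000 nt had 0.450 and 0.424. The median fold was 2.52 and 2.61 in the last 150 nt and 2.92 and 2.77 between 200 and 300 nt.

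The same onset was seen where no distal 3′ UTR exists. On the 294 and 248 mRNAs with a summit in a 3′ UTR of at most 1000 nt, the summits had a density of 0.729 and 0.648 per kb in the last 150 nt, and of 2.75 and 2.39 per kb between 200 and 300 nt. The low density at the very end was therefore not particular to distal peaks. Whether the fragments of the libraries reached the ends of the mRNAs was not tested. Annotated ends of other coding transcripts, inside the distal 3′ UTR and at least 1000 nt from its end, were also examined. Around 364 and 353 such ends, the 500 nt upstream held 0.725 and 0.833 distal summits per kb and the 500 nt downstream 0.533 and 0.538, a ratio of 1.36 and 1.55. Density was thus higher before such an end than after it in both replicates, with no test made.

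**Figure D2:**
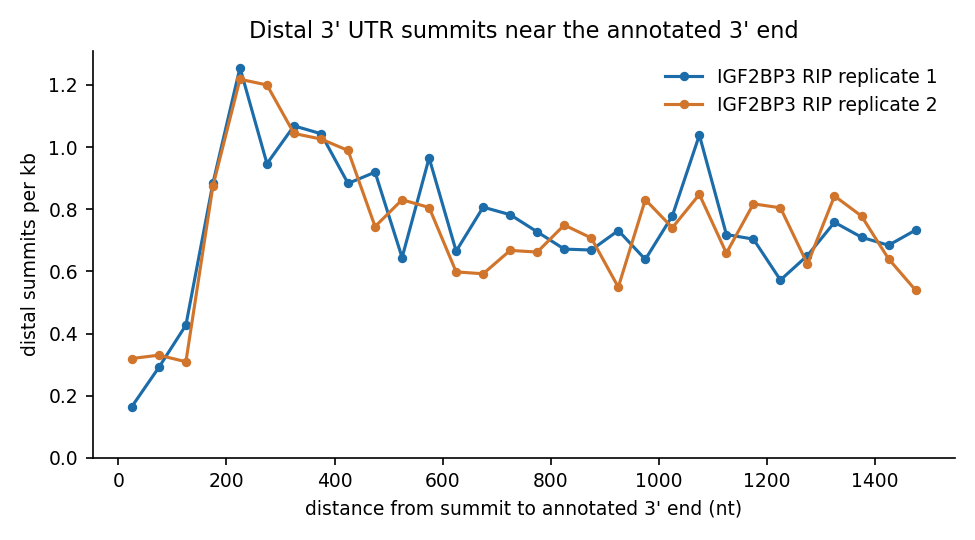
Distal summits per kb (y axis) in bins of 50 nt by distance from the summit to the annotated 3′ end (x axis, nt), with 1 line for each replicate. Both lines lie under 0.5 per kb in the last 150 nt and reach their highest value in the bin from 200 to 250 nt, at 1.26 and 1.22 per kb.

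There were 2043 overlapping distal pairs on 1167 genes. Their log2 fold enrichments correlated across pairs with Pearson's r of 0.42 and Spearman's rho of 0.41, where pairs on 1 mRNA share its abundance and pairs are not replicates. The median distance between paired summits was 102 nt, and 344 pairs (16.8%) had them within 10 nt. Of all pairs, 28 had a fold of at least 4 in both replicates and 6 had a q of at most 0.05 in both. Most pairs therefore shared a region but had summits at different bases.

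The strongest shared site was in MBNL2, a muscleblind regulator of alternative splicing. Its peak had a fold of 7.12 in replicate 1 (q = 8.47e-05) and 6.08 in replicate 2 (q = 0.00141), at chr13:97393566-97394091 and chr13:97393550-97394008. The summits were 2 nt apart, 200 and 202 nt from the 3′ end. AMOT, the junction scaffold angiomotin that binds YAP, had folds of 5.94 and 5.04, with summits 226 and 228 nt from the end. CS, the citrate synthase of the Krebs cycle, had 4.68 and 5.14 with the same summit base in both lists, 246 nt from the end. MET, the receptor of hepatocyte growth factor, had 4.77 and 5.09, with summits 169 nt apart. Of the 10 strongest shared sites, 4 lay on average 200 to 500 nt from the 3′ end, against 330 of 2043 shared pairs (16.2%). Among distal peaks with a fold of at least 5, 4 of 19 in replicate 1 and 6 of 16 in replicate 2 lay in that range. The range was chosen after seeing these same peaks, so the counts are no separate test of it.

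The other 6 strong shared sites lay more than 500 nt from the 3′ end. In SYT7, a calcium sensor of membrane fusion, the folds were 5.56 and 5.66 and the summits lay 2053 and 2024 nt from the end. In HIPK2, a kinase of stress and p53 signalling, they were 5.73 and 4.07. That site stood 1579 nt past the stop codon of a 3′ UTR of 11357 nt. SLC23A2, a vitamin C transporter, had folds of 4.53 and 5.10. TRAK1, an adaptor for mitochondrial transport, had 4.39 and 4.79. RREB1, a zinc finger transcription factor, had 4.99 and 4.17 with 1 common summit base. TNRC6B, the scaffold through which Argonaute recruits deadenylases, had 4.76 and 4.52 at 2309 and 2339 nt past its stop codon. HIPK2, SLC23A2, TNRC6B, TRAK1 and RREB1 had a q of at most 0.05 in 1 replicate only, and the other 5 of the 10 sites in both. The replicates gave no common direction: the fold was higher in replicate 1 at some of these sites and in replicate 2 at others, and over all pairs it was higher in replicate 1 in 58.1%.

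**Figure D3:**
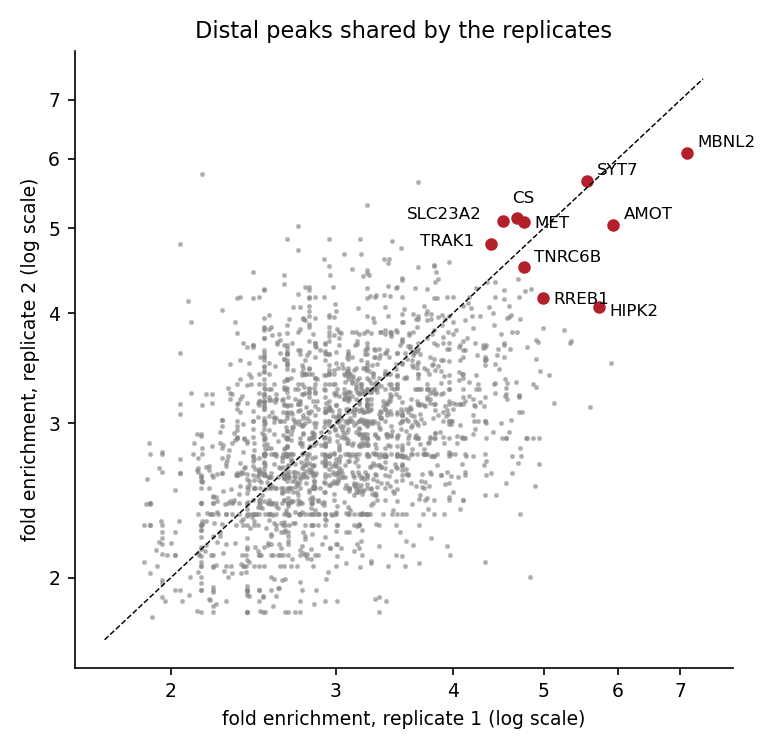
Fold enrichment in replicate 1 (x axis, log scale) against replicate 2 (y axis, log scale) for the 2043 distal pairs that overlap, each point 1 pair, with the 10 strongest sites in red and named. The cloud is wide around the dashed line of equality, and MBNL2 stands farthest from the origin at 7.12 and 6.08.

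A distal peak was found in both replicates on 1464 mRNAs, which was 14.9% of the 9821 MANE mRNAs with a 3′ UTR over 1000 nt and 36.3% of the 4032 of these that had any placed peak in both. The 2 lists together named 2476 mRNAs, so 59.1% were common. The share of mRNAs with any placed peak that carried a distal one followed the length of the 3′ UTR. It was 17.0% and 15.7% for 3′ UTRs over 1000 and up to 2000 nt, 50.9% and 47.7% up to 4000 nt, 69.9% and 66.5% up to 8000 nt, and 78.0% and 73.0% beyond. Per kb of distal sequence the density was 0.385 and 0.346 peaks in the shortest class, 0.450 and 0.424 at 2000 to 4000 nt, 0.447 and 0.416 at 4000 to 8000 nt and 0.361 and 0.330 beyond, so it did not climb with length as the share did.

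The mRNAs with most distal peaks had some of the longest 3′ UTRs. ZBTB20, a zinc finger repressor with a 3′ UTR of 24505 nt, carried 21 and 26 distal peaks, spread from 1925 to 23759 nt past the stop codon, and 13 pairs overlapped. None of these had a q of at most 0.05. SUGT1, a co-chaperone of HSP90, carried 16 and 11. NKD1, which binds Dishevelled and restrains Wnt signalling, carried 11 and 16, and LPP, a LIM protein of focal adhesions, 10 and 15. Thus neither replicate was consistently the richer one. ZNF704, a zinc finger protein, had 13 and 11, and ONECUT2, a homeobox factor of endoderm, 14 and 9. TNRC6B had 12 and 10, and DGKH, a diacylglycerol kinase, 10 and 10. Density over the distal bases of these 8 mRNAs ranged from 0.658 peaks per kb in LPP in replicate 1 to 1.33 in SUGT1 in replicate 1. The highest fold on any of them was 4.87, in LPP in replicate 2.

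**Figure D4:**
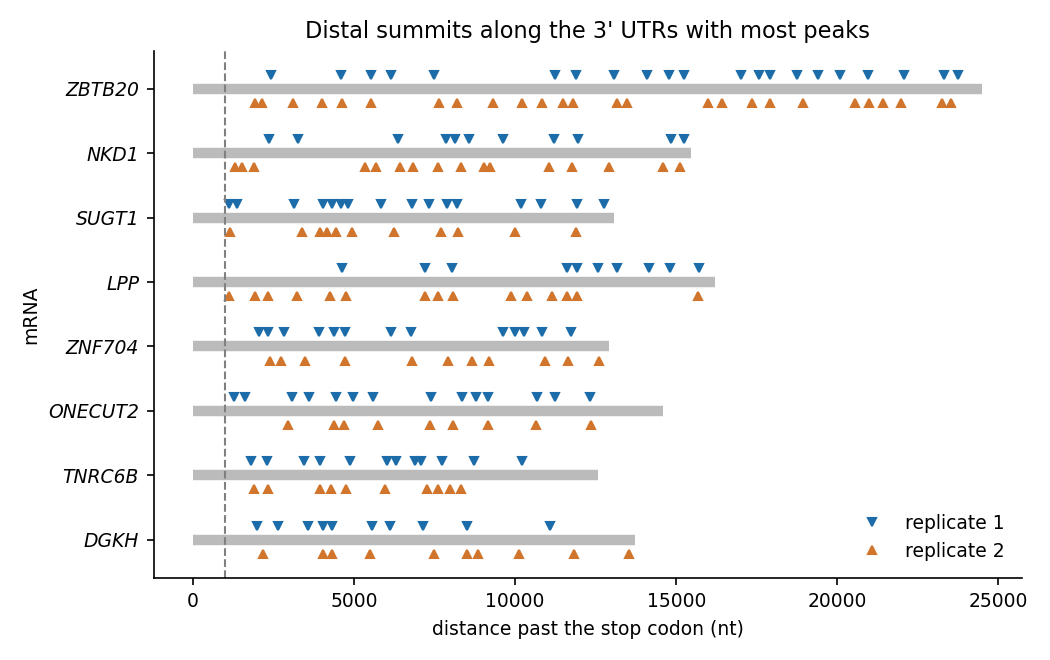
Distal summits along the 3′ UTRs (grey bars, drawn to scale from the stop codon, x axis in nt) of the 8 mRNAs with most distal peaks, with replicate 1 above and replicate 2 below each bar. Summits range from 1102 nt in SUGT1 to 23759 nt in ZBTB20, and in TNRC6B the last one lies at 10206 nt of 12567 nt.

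On 169 mRNAs, 6.83% of those with a distal peak in either replicate, no other peak was found on the MANE mRNA in either list. Of these, 63 had a distal peak in both replicates. NUCKS1, a chromatin-associated phosphoprotein, had 5 distal peaks in each replicate, each overlapping one of the other list, with folds of 2.54 to 2.92 and of 2.37 to 3.30. HEBP2, a heme-binding protein, had 7 and 4, but only 1 overlapped in each list. VAPB, an endoplasmic reticulum tether protein, had 7 and 3. TMEM59, a membrane protein linked to autophagy, had 5 and 4, and ZNF24, a zinc finger repressor, 5 and 4. NUCKS1 was therefore the mRNA among these whose distal peaks all overlapped by the rule of at least 1 bp. Its paired summits were close in some pairs, as at 2459 and 2460 nt past the stop codon. In others they were farther apart, as at 1293 and 1492 nt. None of its peaks had a q of at most 0.05.

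Of the shared sites, that of PPM1F, a protein phosphatase, was the closest to the annotated 3′ end, with summits 44 and 47 nt from the annotated end and folds of 3.07 and 2.61. In PDE5A, the cyclic GMP phosphodiesterase, the summits lay 63 and 66 nt from the end, and an exon of another gene also covered the site. ABAT, the GABA transaminase, had them at 68 and 72 nt, and RLIM, an E3 ubiquitin ligase, at 83 and 78 nt. MYB, a transcription factor of proliferating progenitor cells, had them at 129 and 41 nt. All 5 sites had a q of 1 in both replicates, as did 76.2% and 84.6% of all distal peaks in their list. The strongest shared site on the CDS of another isoform was in PCGF3, a Polycomb RING finger protein, with folds of 4.56 and 3.24 at 3144 and 3205 nt past the MANE stop codon, a position that is coding in another annotated isoform.

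Of 16 genes of the microRNA pathway, 14 had a 3′ UTR over 1000 nt and 8 had a distal peak in both replicates. Of the 12 with room for a distal peak and any placed peak in both replicates, these were 8, against 36.3% of all such mRNAs. The median 3′ UTR of the list was 4278 nt against 2360 nt for all mRNAs with a distal region. Among all mRNAs with a peak and a 3′ UTR of 4000 to 8000 nt, 69.9% carried a distal peak in replicate 1 and 66.5% in replicate 2. These are shares in single replicates, where the list had 10 and 8. The share with a distal peak in both replicates was not counted by length. Argonaute proteins hold the microRNA. AGO1 carried 11 and 8 distal peaks, with folds of 2.43 to 3.73 and 2.55 to 3.68, and 6 pairs overlapped. All of the overlapping AGO1 peaks lay less than 7000 nt past the stop codon, and the 5 and 1 peaks beyond had no partner. AGO2, the slicing Argonaute, carried 7 and 7, with the highest fold at 4.43 and 4.34. AGO4 carried 2 and 2, and AGO3 only 1 and 2 on a 3′ UTR of 16755 nt.

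TNRC6B, described above, carried 12 and 10. XPO5, which exports microRNA precursors from the nucleus, had 1 peak in each list with the same summit base, 1232 nt past the stop codon, and folds of 2.27 and 3.02. CNOT6L, a deadenylase of the CCR4-NOT complex, had 4 and 2. DICER1, which cuts microRNA precursors, had 2 and 1, and none of its distal peaks overlapped a peak of the other list. DICER1 thus counts as carrying a distal peak in both replicates without a common site.

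Of 20 let-7 target mRNAs, 4 had a distal peak in both replicates. They were among 12 with a distal region and any placed peak in both. Of all such mRNAs, whatever the length of the 3′ UTR, 36.3% had one. The median 3′ UTR of the list was 4270 nt. At 4000 to 8000 nt, 69.9% and 66.5% of mRNAs with a peak carried a distal one, counted in each replicate singly. CDK6, the cyclin D kinase, carried 5 and 8, and each overlapped a peak of the other list. Its strongest peaks had folds of 4.35 and 4.34 at 8832 and 8764 nt past the stop codon. IGF1R, the type 1 receptor of insulin-like growth factors, had 2 and 4 distal peaks. Its highest fold was 4.71 in replicate 1 at 1944 nt and 5.65 in replicate 2 at 3466 nt, and the latter place was covered in replicate 1 by a peak too wide for the 1000 bp limit. DICER1 is also in this list. Printed CTACCTC sites were on none of these mRNAs.

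Among 16 classical IGF2BP target mRNAs, 10 had no placed peak in either replicate. The same share over all mRNAs was not counted. Of all 9821 mRNAs with a distal region, 4032 had any placed peak in both replicates, and of the 14 such mRNAs in the list 4 had. In the list, 2 mRNAs had a distal peak in both, out of 4 with a distal region and any placed peak in both. The share among all such mRNAs was 36.3%. BTRC, a substrate adaptor of ubiquitin ligases, had a shared site 200 and 348 nt from its end with folds of 3.05 and 2.93. That site did not reach a q of 0.05 in either replicate. None of the 9 regulators of the G1 to S transition had a distal peak in either replicate. Of them, 7 have a 3′ UTR over 1000 nt, with a median of 1799 nt, and 3 had any placed peak in both. Among all mRNAs with a peak and a 3′ UTR of 1000 to 2000 nt, 17.0% and 15.7% carried a distal one. CDC25A, the phosphatase that activates cyclin-dependent kinases, had 1 peak in each replicate outside the distal region. Of 10 epithelial and OE-19 identity genes, EGFR had a distal peak in replicate 1 only and ERBB3 in replicate 2 only.

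Of 16 Pumilio and other 3′ UTR-binding proteins, 5 had a distal peak in both replicates. They were among 15 with a distal region and any placed peak in both. Of all such mRNAs, whatever the length of the 3′ UTR, 36.3% had one. The median 3′ UTR of the list was 3523 nt, against 2360 nt for all mRNAs with a distal region. At 2000 to 4000 nt, 50.9% and 47.7% of mRNAs with a peak carried a distal one, counted in each replicate singly. RC3H2, a Roquin protein that destabilises mRNAs at stem-loops, had 5 and 2. Its site 205 and 207 nt from the 3′ end had folds of 3.12 and 4.50. RC3H1, the other Roquin, had 5 and 4, and none overlapped. MSI2, a Musashi translation regulator, had 5 and 1, CPEB4, a cytoplasmic polyadenylation factor, 2 and 1, and ZFP36L1, an AU-rich element protein, 1 and 1. Each of these 3 mRNAs had 1 shared site.

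The stretches around distal summits were richer in cytosine and poorer in uracil than distal 3′ UTRs as a whole. GC content in windows that reached 50 nt to each side of the summit was 44.8% ± 0.123 (SD, n = 2), against 41.3% in 193396 consecutive windows of the same length over all distal 3′ UTRs. Cytosine made up 23.1% against 20.3%, and uracil 27.8% against 30.6%. Motifs were counted on the mRNA strand and, for comparison, as their reverse complements. GGAC stood in 22% and 22.8% of summit windows against 19.2% of all distal windows, and its reverse complement GTCC in 24.7% and 25.5% against 20.5%. TGGAC, which contains GGAC, stood in 7.53% and 7.70% against 6.49%, and its reverse complement GTCCA in 7.62% and 7.82% against 6.5%. The excess of TGGAC was thus matched by that of its reverse complement. Among all 1024 sequences of 5 bases, TGGAC ranked 295 by the mean ratio to all distal windows. All of the first 20 contained CG, as 244 of the 1024 do.

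Other known motifs went in both directions. CATC, 1 of the short forms known for the KH domains of IGF2BP proteins, stood in 32.5% and 33.8% of windows against 27.2%, with its reverse complement GATG at a mean of 30.0% against 29.0%. The related CATT and CATA were less frequent than in all windows, with mean ratios of 0.928 and 0.932. CACACA had a mean ratio of 1.3 and its reverse complement TGTGTG 0.981. The AU-rich pentamer ATTTA stood in 13.0% and 13.5% against 19.1%, a mean ratio of 0.693 where its reverse complement TAAAT had 0.749. The Pumilio element TGTAAATA stood in only 14 and 17 windows, 0.308% and 0.415%, against 0.715%. Its mean ratio was 0.506, and its reverse complement TATTTACA had 0.857. The polyadenylation signal AATAAA was found in 5.51% and 6.38% against 8.40%, a mean ratio of 0.707 where its reverse complement TTTATT had 0.574. TTTTT stood in 19.1% and 19.4% against 28.8%, a mean ratio of 0.667, and AAAAA had 0.921. The let-7 match CTACCTC stood in 33 and 30 windows, 0.727% and 0.733%, against 0.598%, and its reverse complement GAGGTAG had a mean ratio of 0.748. In windows of 100 nt to each side its mean ratio turned from 1.22 to 0.964. A match is a string of letters and not a site in use.

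Base composition changed at fixed distances from the summit. Adenine was most frequent 5 nt before the distal summit, at 31.9% and 32%, with a further maximum 27 and 26 nt before it. Cytosine was most frequent 6 nt after the summit, at 30.3% and 29.0%, and again 28 nt after it in both replicates. The mean of the outer 100 nt on each side of a window of 200 nt per side was 27.5% for adenine in both replicates, and 21.1% and 21.5% for cytosine. Proximal 3′ UTR peaks and CDS peaks had their adenine maxima at 5 nt before and their cytosine maxima at 6 nt after the summit as well, so the pattern was not particular to distal peaks. The narrowest peaks were 33 bp in replicate 1 and 32 bp in replicate 2 in each of the 4 regions of the mRNA, and 176 and 184 distal peaks had exactly that width. Whether fragment ends, ligation or the caller's settings bear on the fixed distances was not tested.

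**Figure D5:**
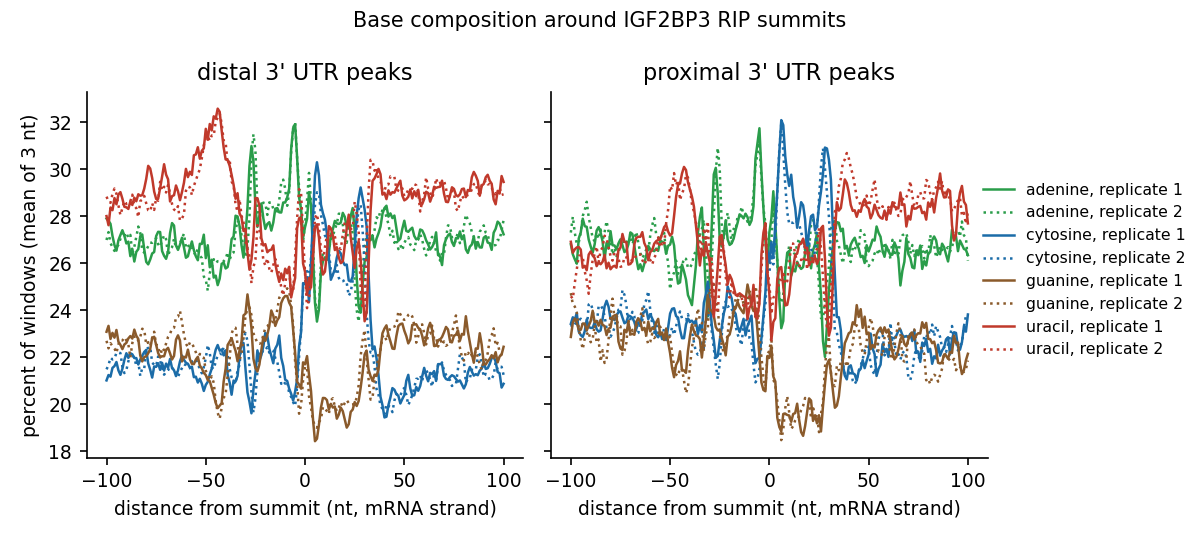
Share of each base (y axis, percent of summit windows, mean over 3 nt) by distance from the summit (x axis, nt, along the mRNA) for distal (left) and proximal (right) 3′ UTR peaks, with solid lines for replicate 1 and dotted lines for replicate 2. Adenine peaks at 5 nt before and cytosine at 6 nt after the summit in both panels, and the lines of the replicates run close together.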

How the data were processed

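RIP-seq peaks of 2 IGF2BP3 replicates in OE-19 cells were taken as deposited, in 1 list per sample. The labels name fastp, HISAT2, MACS2 and hg38, whereas the study's methods name Tophat2, and versions are not given in the sources used here. Fold is deposited as a ratio of pileup over local background. The p-value and the corrected q are deposited as −log10, and the deposited score is the whole part of 10 times −log10 p in 100% of peaks. The smallest −log10 p among distal peaks was 2.00 and 2.01, which goes with an uncorrected limit on p. The study's methods give default settings for MACS2 on RIP-seq and name no such limit. The sources used here do not name the caller's control. Depth is unknown, hence no counting intervals, and input libraries were not analysed here. The study calls the replicates biological. The labels do not say how they were cultured, so spreads may be technical.

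Summits were placed on 19061 MANE Select mRNAs of GENCODE 44 (GRCh38). All 24 chromosomes matched the reference and 0 peaks ran past an end. Summits that fell on more than 1 mRNA, 162 and 151, were excluded. Placement and overlap were tested on simulated peaks. Replicates shared a peak at an overlap of at least 1 bp. Windows had 50 nt on each side of the summit. The 25 nt sites were read from the GENCODE transcripts, and 18 of 18 equalled hg38; RefSeq gave let-7a. Named genes were the 10 shared sites of highest mean log2 fold, the 8 mRNAs with most distal peaks, the 5 with most among those without another peak, the 5 shared sites nearest the 3′ end, the strongest shared site on another isoform's CDS, and list genes with a distal peak in both replicates, of which some are not reported here. The members, the lists and the tests were chosen with earlier results of these data known. Distal and proximal peaks were compared with an exact sign-flip permutation test. Alternatives were limits on q, fold, distance and width, the midpoint, exclusion of other genes and isoforms, each replicate left out, other overlap rules and other windows. Python 3 with numpy, pandas and scipy was used.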

Additional observations from a re-analysis of the deposited data

How the results depend on the processing

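With a q of at most 0.05 in both lists, the mean number of distal peaks was 63, the overlap with the other replicate 22.1%, the median fold 4.84, the share in the last 200 nt 7.03%, the share 200 to 500 nt from the end 23.6%, the share on CDS of another isoform 1.10%, the density ratio of distal to proximal 3′ UTR 0.516 (0.890 as reported for the 1000 nt limit), and 7 genes had a distal peak in both replicates. With a fold of at least 5 the same values were 17.5, 28.8%, 5.31, 2.63%, 29.3%, 0%, 0.478 and 3, and 100% had a q of at most 0.05. Those means rest on 19 and 16 peaks and differ between replicates 1 and 2, at 5.26% and 0% in the last 200 nt, 21.1% and 37.5% from 200 to 500 nt and 0.279 and 0.678 for the density ratio. With the q limit the replicates had 91 and 35 peaks, 9.89% and 34.3% overlap and 2.20% and 0% on CDS of another isoform. A limit of 2000 nt gave 2667 peaks, 926 genes, 4.31%, 14.8%, 0.299% and a density ratio of 0.857. A limit of 500 nt gave 3.84%, 13.1% and 0.817. Placing peaks by midpoint gave 3.84%, 14.6%, 0.174% and 0.814. Without a limit on width the values were 3.91%, 13.2% and 0.910, a median fold of 2.79 and 2.49% with a q of at most 0.05. Leaving out summits on exons of other genes gave 3.95% and 0.897, and leaving out those on CDS of other isoforms 0.904. Overlap of 50% of both peaks gave 19.2%, and summits within 50 nt 18.2%. The last 100 nt held 1.26% and the last 500 nt 17.9%. The CTACCTC ratio was 0.964 with windows of 100 nt to each side. The range from 200 to 500 nt was chosen after seeing the data.

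With either replicate left out, the values ranged from 4123 to 4558 peaks, 51.9% to 63.5% overlap, a median fold of 2.75 to 2.78, 3.99% to 4.17% in the last 200 nt, 13.6% to 14% from 200 to 500 nt, 0.218% to 0.263% on other CDS, 0.849% to 2.0% with a q of at most 0.05 and a density ratio of 0.889 to 0.892. Genes in both replicates cannot be counted with 1 list. The q share under the q limit and the CDS share without such summits are fixed by construction and were not computed. No paired analysis was possible because the groups that share replicate numbers are RIP and input, and no input values were used here, while distal and proximal peaks were compared within each replicate. The unknown read depth limits all shares that compare replicates.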
